A study of Bos taurus with 6 samples.

Results

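The expression of 10 genes of the Hippo pathway was followed in bovine blastocysts that developed from oocytes matured with or without melatonin (MT). They were YAP1, WWTR1, TEAD1, TEAD3, LATS1, LATS2, STK3, STK4, AMOT and AMOTL2, chosen by gene symbol, and each symbol was listed once among the 36075 genes of the table, of which 20337 had a symbol. All 10 passed the filter on low values, a TPM of 1 in 3 or more libraries, and were among the 11953 genes tested. TEAD3, STK4 and AMOTL2 reached this level only in MT-treated libraries and LATS1 only in control libraries, so these genes passed through a single group. The question of the comparison was whether MT in the maturation medium goes with a different transcriptome in the blastocyst.

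Cumulus-oocyte complexes from slaughterhouse ovaries were matured for 22 h with 1e-07 mol/L MT in the MT-treated group and without MT in the control group and were then fertilized and cultured in vitro to the blastocyst stage. Each group had 3 libraries, and each library was made from a pool of 3 blastocysts. The labels name no genetic change and no other agent for either group, and the breed and sex of the embryos were not given in the sources used here. The 3 libraries of a group came from separate in vitro production runs. Per the methods of the study, the complexes of a run were pooled, divided at random and treated side by side, so the 2 groups may share runs. Nothing in the labels ties a replicate number of one group to that of the other, and the main fit was unpaired. Because a library is made from whole blastocysts, fewer cells of a type and less RNA per cell cannot be told apart.

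The Hippo pathway is a kinase cascade that couples cell polarity, contact and tension to transcription. The MST kinases, encoded by STK3 and STK4, activate the LATS kinases, and LATS1 and LATS2 phosphorylate the coactivators YAP1 and TAZ (the product of WWTR1), which are then held in the cytoplasm or degraded. Unphosphorylated YAP1 and TAZ enter the nucleus and bind the TEAD factors. In the mammalian embryo the pathway separates the outer trophectoderm from the inner cell mass: in outer, polarized cells the angiomotins (AMOT, AMOTL2) are kept away from junctional LATS and YAP1-TEAD complexes act on trophectoderm genes, whereas in inner cells the pathway is active.

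Values are TPM, a unit scaled for gene length and library total, so levels of different genes can be set side by side. TPM keeps no counts, and the depth behind a value is unknown. Tests were made with limma on log2(TPM + 1), a scale that understates the change of low genes, with Benjamini-Hochberg adjustment over the 11953 genes. A gene was called at an adjusted p of 0.05 or less. For a gene listed at 0 in every library of a group the values are given with no fold change. The fitted difference of such a gene depends on the pseudocount. It enters counts and medians, and is printed only where another scaling turned its sign.

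The 2 groups stood far apart across the whole table. Control libraries had 8854 to 8953 genes above 0 and MT-treated libraries 14372 to 14408, and 4037 tested genes (33.8%) were at 0 throughout the control group against 360 (3.01%) in all MT-treated libraries. The correlation of log2(TPM + 1) over genes was 0.991 to 0.999 within groups and 0.544 to 0.546 between them. POLR3K and MED21, which encode subunits of RNA polymerase III and Mediator that every cell uses, were listed at 0 in each control library. In MT-treated libraries POLR3K was at 293, 297 and 294 TPM and MED21 at 213, 204 and 200 TPM. A 0 in a control library is therefore a listed value and was not read as absence of the transcript. In total, 95.7% of the tested genes were called, 61.6% higher and 34.1% lower in MT-treated blastocysts, and the 2 groups did not overlap in 96.1%. The 7367 higher and 4071 lower calls became 5550 and 5311 after quantile normalization and 8412 and 3038 after median centring. The part of these library differences in the results for the Hippo genes was not tested.

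All 10 Hippo genes were called, 5 higher and 5 lower in MT-treated blastocysts, against 95.7% of all tested genes, and the groups did not overlap in 10 of 10, against 96.1%. The share of called genes was thus close to the background. For TEAD3, STK4, AMOTL2 and LATS1 the filter alone fixed that the groups do not overlap, as for every tested gene that passed it through a single group. Their median log2 fold change was 0.14, against 1.12 over all tested genes, and over the 7 that were above 0 in all 6 libraries it was -0.18, against -0.19 over the 6925 such genes of the table. The split of 5 higher and 5 lower became 3 and 7 after quantile normalization and 6 and 4 after median centring, because YAP1, AMOTL2 and LATS2 changed direction under 1 of these scalings each.

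**Figure D1:**
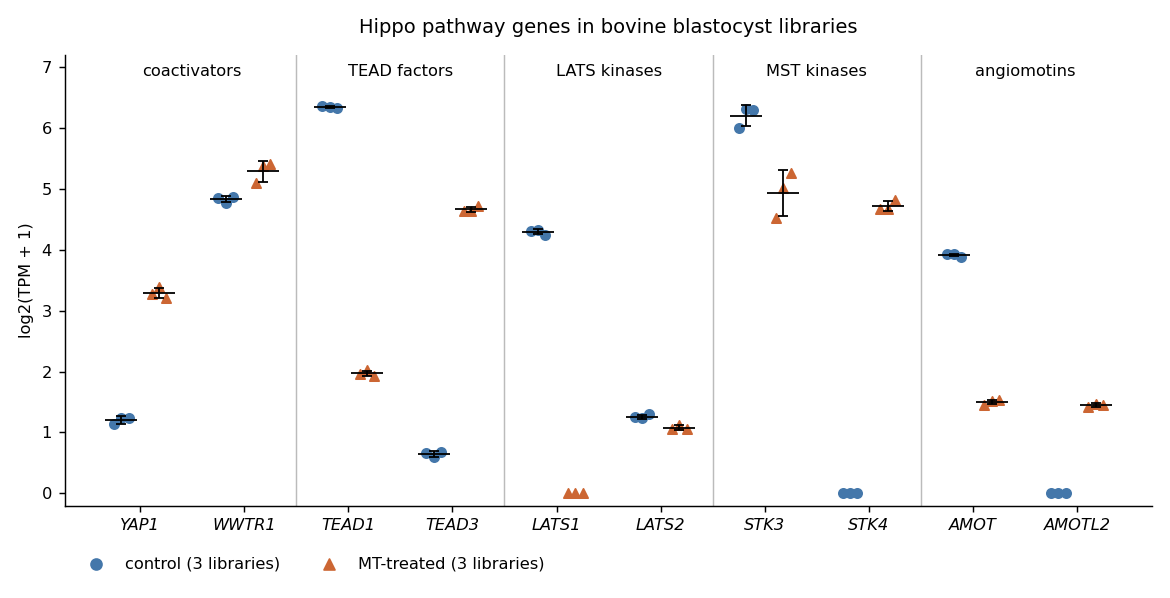
Level of each of the 10 Hippo genes in every library, as log2(TPM + 1) on the vertical axis, with control libraries as circles and MT-treated libraries as triangles. Horizontal lines are group means and bars are SD (n = 3), drawn only where no library of the group is listed at 0. TEAD1, LATS1 and AMOT lie lower and TEAD3 and STK4 higher in MT-treated libraries, and STK3 has the widest spread.

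The coactivators come first. YAP1 (ENSBTAG00000039307) was at 1.2, 1.37 and 1.37 TPM in control and at 8.62, 9.45 and 8.28 TPM in MT-treated libraries. Every MT-treated library was above every control library, and the means were 1.31 ± 0.0981 and 8.78 ± 0.602 TPM (SD, n = 3), a ratio of 6.69. The log2 fold change of YAP1 was 2.08 (SE 0.06, adjusted p = 1.22e-07, limma), but it was -0.82 after quantile normalization (adjusted p = 5.19e-06) and 2.56 after median centring, so its direction depended on the scaling. By its group mean, YAP1 stood at percentile 31.6 of the genes with a mean above 0 in control and at 48.8 of those in MT-treated blastocysts. More genes were above 0 in MT-treated libraries, so these percentiles are not on a common scale. WWTR1 (ENSBTAG00000007814), which encodes the YAP1 paralog TAZ, was at 27.8, 26.4 and 28.3 TPM in control and at 33.1, 40.4 and 41.4 TPM in MT-treated libraries. The groups did not overlap, although MT-treated replicate 1 lay nearer to the controls than the other 2. The means were 27.5 ± 0.990 and 38.3 ± 4.52 TPM (SD, n = 3), a ratio of 1.39, and the log2 fold change was 0.46 (SE 0.09, adjusted p = 0.00259, limma). It ranged from 0.40 to 0.56 when each library was left out in turn.

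The TEAD factors are the DNA-binding partners of YAP1 and TAZ. TEAD1 (ENSBTAG00000032657) was at 81.5, 80.4 and 79.5 TPM in control and at 2.90, 3.05 and 2.82 TPM in MT-treated libraries. It was the most abundant of the 10 genes in control and the sixth in order in MT-treated blastocysts. The means were 80.5 ± 0.993 and 2.92 ± 0.117 TPM (SD, n = 3), 27.5 times higher in control, with a log2 fold change of -4.38 (SE 0.03, adjusted p = 6.38e-10, limma). TEAD3 (ENSBTAG00000019495) was at 0.58, 0.51 and 0.61 TPM in control and at 24.0, 23.8 and 25.3 TPM in MT-treated libraries. The paralog thus moved the other way, from below 1 TPM in every control library to the level of the STK genes. The means were 0.567 ± 0.0513 and 24.3 ± 0.827 TPM (SD, n = 3), a ratio of 43.0, with a log2 fold change of 4.02 (SE 0.04, adjusted p = 1.71e-09, limma), which was 5.20 with a pseudocount of 0.1 and 2.54 after quantile normalization.

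The LATS kinases phosphorylate YAP1 and TAZ. LATS1 (ENSBTAG00000015076) was at 18.90, 19.14 and 18.03 TPM in control and at 0.01, 0.01 and 0.00 TPM in MT-treated libraries. It was called lower (adjusted p = 7.82e-10, limma), and no fold change is given because the MT-treated values lie at the last decimal of the table. LATS2 (ENSBTAG00000014406) was at 1.38, 1.35 and 1.46 TPM in control and at 1.07, 1.19 and 1.09 TPM in MT-treated libraries. The groups did not overlap, but the difference was the smallest among the 10 genes as fitted. The means were 1.40 ± 0.0569 and 1.12 ± 0.0643 TPM (SD, n = 3), and the log2 fold change was -0.18 (SE 0.04, adjusted p = 0.00335, limma), whereas it was 0.30 after median centring (adjusted p = 0.000235), so the direction of LATS2 depended on the scaling. After quantile normalization it was -1.96. In MT-treated blastocysts LATS2 and LATS1 were the 2 lowest of the 10 genes.

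The MST kinases act upstream of LATS. STK3 (ENSBTAG00000026234), which encodes MST2, was at 63.0, 78.0 and 77.3 TPM in control and at 21.9, 31.1 and 37.3 TPM in MT-treated libraries. The groups did not overlap, and the spread of STK3 was wide, with a coefficient of variation of 11.6% in control and 25.7% in MT-treated blastocysts. The means were 72.8 ± 8.46 and 30.1 ± 7.74 TPM (SD, n = 3), 2.42 times higher in control, with a log2 fold change of -1.27 (SE 0.20, adjusted p = 0.000923, limma) that ranged from -1.44 to -1.07 when each library was left out in turn. STK4 (ENSBTAG00000003257), which encodes MST1, was listed at 0 in all 3 control libraries and was at 24.4, 24.5 and 27.3 TPM in MT-treated libraries (called higher, adjusted p = 1.78e-09, limma). Its MT-treated level overlapped those of STK3 and TEAD3.

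The angiomotins bind YAP1 and LATS at cell junctions. AMOT (ENSBTAG00000016221) was at 14.2, 14.2 and 13.8 TPM in control and at 1.74, 1.87 and 1.88 TPM in MT-treated libraries. Every MT-treated library was below every control library, with means of 14.1 ± 0.235 and 1.83 ± 0.0781 TPM (SD, n = 3), 7.69 times higher in control. The log2 fold change was -2.41 (SE 0.04, adjusted p = 6.32e-09, limma). AMOTL2 (ENSBTAG00000000742) was listed at 0 in all 3 control libraries and was at 1.67, 1.77 and 1.75 TPM in MT-treated libraries (adjusted p = 1.62e-08, limma). Its call was higher as fitted, but the fitted log2 difference was -0.39 after quantile normalization (adjusted p = 8.97e-07). AMOT and AMOTL2 overlapped in level in MT-treated blastocysts.

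**Figure D2:**
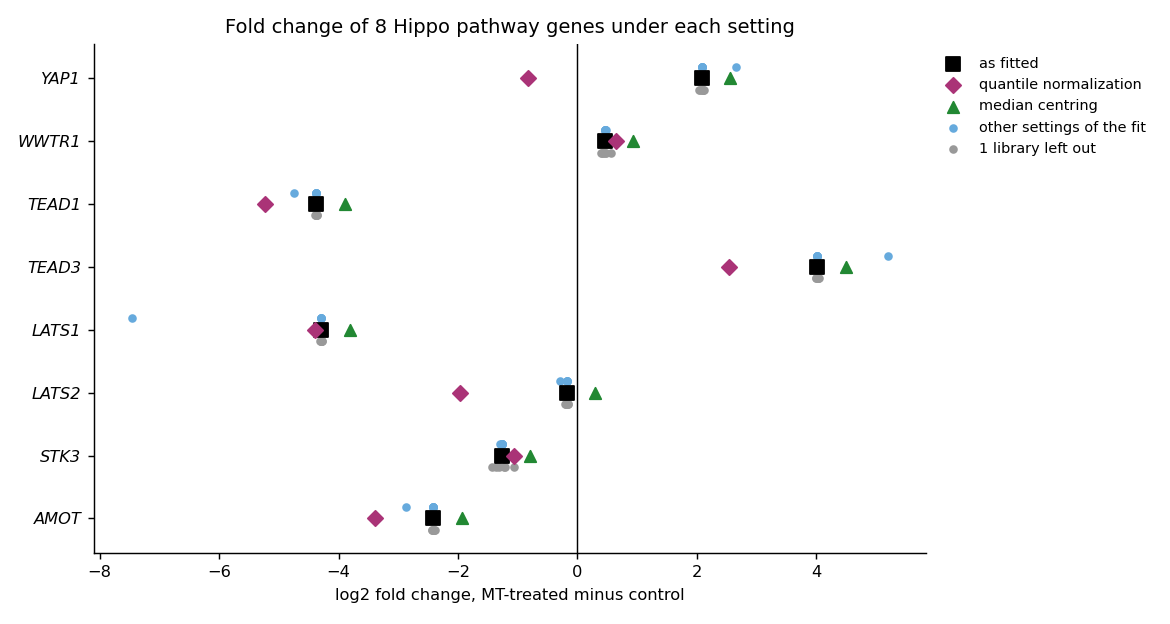
Log2 fold change (MT-treated minus control, horizontal axis) of the 8 Hippo genes not listed at 0 throughout a group, as fitted (squares), after quantile normalization (diamonds), after median centring (triangles), under other settings of the fit and with 1 library left out (points). YAP1 crosses 0 to -0.82 under quantile normalization and LATS2 crosses to 0.30 under median centring, whereas the other 6 stay on their side.

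The order of the 10 levels differed between the groups. In control blastocysts it ran from TEAD1 through STK3, WWTR1, LATS1 and AMOT to LATS2, YAP1 and TEAD3, with STK4 and AMOTL2 listed at 0. LATS2 and YAP1 were the only neighbours above 0 in that order whose libraries overlapped. In MT-treated blastocysts it ran from WWTR1, STK3, STK4 and TEAD3 to YAP1, TEAD1, AMOT, AMOTL2, LATS2 and LATS1. Among the first 4, the ranges of WWTR1 and STK3, STK3 and STK4, and STK4 and TEAD3 overlapped, as did those of AMOT and AMOTL2. Within each MT-treated library, however, WWTR1 was above STK3, STK4 above TEAD3 and AMOT above AMOTL2. STK3 changed order with both STK4 and TEAD3, lying below them in MT-treated replicate 1 and above them in the others. WWTR1 was above STK4 and TEAD3 in every MT-treated library.

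The 10 genes form 5 paralog pairs, and the share of a gene within its pair does not change when all values of a library are multiplied by 1 factor. It can change under quantile normalization, where YAP1 had a log2 fold change of -0.82 and WWTR1 of 0.65. TEAD1 made up 99.3%, 99.4% and 99.2% of TEAD1 + TEAD3 in control and 10.8%, 11.4% and 10.03% in MT-treated libraries, a difference of -88.6 percentage points. The major TEAD gene of the pair was thus TEAD1 in every control library and TEAD3 in every MT-treated library. LATS1 made up 93.2%, 93.4% and 92.5% of LATS1 + LATS2 in control and 0.926%, 0.833% and 0% in MT-treated libraries. The share of LATS2 was high in MT-treated blastocysts without a higher TPM of LATS2, because the summed TPM of the pair was 20.1 ± 0.527 in control and 1.12 ± 0.0666 in MT-treated libraries (SD, n = 3).

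STK3 made up 100% of STK3 + STK4 in each control library and 47.4%, 56.0% and 57.8% in MT-treated libraries. The summed TPM of this pair, at 63.0, 78.0 and 77.3 in control and 46.3, 55.6 and 64.6 in MT-treated libraries, overlapped between the groups. AMOT made up 100% of AMOT + AMOTL2 in each control library and 51.0%, 51.4% and 51.8% in MT-treated libraries, with a sum of 14.1 ± 0.235 against 3.56 ± 0.130 TPM (SD, n = 3). YAP1 made up 4.14%, 4.94% and 4.62% of YAP1 + WWTR1 in control and 20.7%, 19.0% and 16.7% in MT-treated libraries, a difference of 14.2 percentage points. WWTR1 remained the larger of the 2 coactivators in all 6 libraries, and their sum was 28.8 ± 0.967 TPM in control and 47.1 ± 4.64 TPM in MT-treated libraries (SD, n = 3).

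In STK3 + STK4 and AMOT + AMOTL2 the control share of 100% comes from a partner listed at 0 and could not be higher in MT-treated libraries. Each of the 5 shares had p = 0.1 in an exact two-sided permutation test and an adjusted p of 0.1 over the 5 pairs, the smallest value that 3 against 3 libraries allow, so this test cannot pass 0.05. As fitted, the 2 genes of a pair were called in opposite directions in 3 pairs (TEAD1 and TEAD3, STK3 and STK4, AMOT and AMOTL2) and in the same direction in 2. After quantile normalization AMOT and AMOTL2 were both lower and YAP1 and WWTR1 were called in opposite directions, and after median centring so were LATS1 and LATS2.

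Further members of 2 families were added to these shares after the values had been seen. Over the 4 TEAD genes, TEAD1 held 69.5% to 70.3% in control and 4.96% to 5.80% in MT-treated libraries, and TEAD3 held 0.446% to 0.533% and 44.5% to 45.2%. TEAD4, the TEAD factor best known for its part in trophectoderm formation, held 16.5% to 16.9% and 39.3% to 41.6%, and TEAD2 held 12.5% to 13.4% and 8.15% to 9.74%. TEAD3 and TEAD4 together thus made up the larger part of TEAD transcripts in each MT-treated library, while the summed TPM of the 4 genes was 114 to 116 in control and 52.6 to 56.8 in MT-treated libraries. Over the 3 angiomotins, AMOT held 97.9% to 98.6% in control and 43.6% to 44.9% in MT-treated libraries, and AMOTL2 held 0% and 41.3% to 42.2%. AMOTL1 held the rest, 1.36% to 2.13% and 13.4% to 15.2%.

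**Figure D3:**
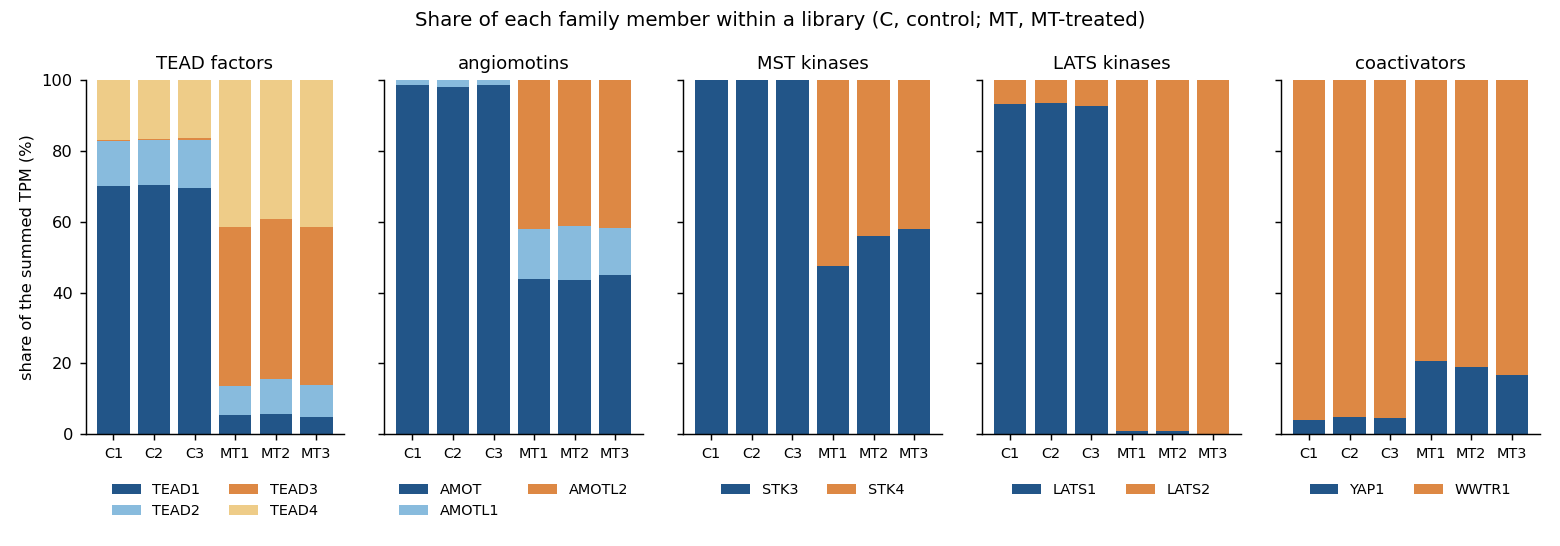
Share of each gene in the summed TPM of its family (vertical axis, percent) in every library, with C1 to C3 for control and MT1 to MT3 for MT-treated libraries. The major gene passes from TEAD1 to TEAD3 and TEAD4 and from LATS1 to LATS2, while WWTR1 remains the larger coactivator in all 6 libraries.

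Of the other core genes of the pathway, 22 of 27 listed genes were tested, and 17 had a higher (77.3%) and 5 a lower call (22.7%). Over all tested genes 61.6% were called higher and 34.1% lower. The median log2 fold change of the other core genes was 2.65, against 1.12 over all tested genes. Of the 17, 10 were listed at 0 throughout the control group, as were 4037 of the 7367 genes called higher over the table. Over the 9 genes above 0 in all 6 libraries the split was 4 higher and 5 lower with a median of -0.12. The split of the 22 genes was 11 and 7 after quantile normalization and 19 and 2 after median centring. The 3 cofactors of the core kinases were all listed at 0 in control. SAV1, the scaffold that pairs with MST kinases, was at 3.26, 3.24 and 3.39 TPM in MT-treated libraries, MOB1A was at 6.53, 4.64 and 5.88 TPM and MOB1B at 3.37, 3.29 and 3.47 TPM. They were called higher as fitted, but after quantile normalization the fitted differences of SAV1 and MOB1B were -0.06 and -0.05 on the log2 scale.

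Among the membrane scaffolds upstream of LATS, NF2 (merlin) was at 64.2, 63.4 and 64.9 TPM in control and 19.1, 18.2 and 17.7 TPM in MT-treated libraries, with a log2 fold change of -1.75 (SE 0.03, adjusted p = 1.79e-08, limma). The other 4 scaffolds were called higher. WWC3 was at 0.01, 0.03 and 0.00 TPM in control and 39.8, 39.0 and 37.1 TPM in MT-treated libraries, and FRMD6 was listed at 0 in control and at 29.8, 17.0 and 31.4 TPM in MT-treated libraries. Of the other TEAD genes, TEAD2 had a log2 fold change of -1.43 (SE 0.06, adjusted p = 1.29e-06, limma). TEAD4 was at 19.7, 19.0 and 18.9 TPM in control and 22.1, 20.7 and 23.6 TPM in MT-treated libraries, with a log2 fold change of 0.19 (SE 0.05, adjusted p = 0.0113, limma) that was 0.04 after quantile normalization (adjusted p = 0.702). VGLL1, a TEAD cofactor of the trophoblast, had a log2 fold change of -0.46 (SE 0.04, adjusted p = 3.77e-05, limma), which was 0.02 after median centring (adjusted p = 0.69). Of the 10 tested kinases that act beside MST or LATS, 8 were higher and 2 lower, against 61.6% and 34.1% of all tested genes. Of the 12 listed, 7 were at 0 throughout the control group. They include STK38L, at 0 in all 6 libraries, and TNIK, which missed the filter. Their count is therefore not on the same base as the 33.8% of tested genes at 0 throughout control. MAP4K1 was listed at 0 in control and at 52.2, 44.4 and 47.5 TPM in MT-treated libraries.

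Of the regulators of the pathway, 45 of 53 were tested, with 22 higher (48.9%), 20 lower (44.4%) and 3 not called, against 61.6% higher and 34.1% lower over all tested genes. The median log2 fold change was 0.20, against 1.12. The higher and lower calls were 13 and 24 after quantile normalization and 28 and 15 after median centring. STRIP2, of the phosphatase complex that opposes MST kinases, was at 69.0, 87.3 and 87.6 TPM in control and 0.11, 0.12 and 0.25 TPM in MT-treated libraries. RASSF6, which binds MST kinases, was at 24.9, 25.2 and 32.3 TPM in control and listed at 0 in all MT-treated libraries, and the protocadherin gene DCHS2 had a log2 fold change of -2.71 (SE 0.12, adjusted p = 1.29e-06, limma). At the other end, PTPN14, a phosphatase that binds YAP1, was at 0.00, 0.00 and 0.05 TPM in control and 37.7, 41.6 and 37.3 TPM in MT-treated libraries. FAT4, the partner of dachsous protocadherins, was listed at 0 in control and at 65.4, 58.9 and 70.2 TPM in MT-treated libraries, and CSNK1D, a kinase that marks YAP1 for degradation, was at 0 and at 28.9, 29.8 and 29.2 TPM. By role, the 8 tested ubiquitin ligase genes were 2 higher and 6 lower, the 15 phosphatase genes were 7 higher and 7 lower, and the 7 genes of 14-3-3 proteins, which hold phosphorylated YAP1 in the cytoplasm, were 3 higher and 3 lower, beside the same background of 61.6% and 34.1%.

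Of the polarity and junction genes, which set where angiomotins and LATS lie in a cell, 23 of 26 were tested, with 12 higher and 11 lower (14 and 7 after median centring), that is 52.2% and 47.8% against 61.6% and 34.1% over all tested genes. The median log2 fold change was 0.33, against 1.12. DLG5 was at 12.10, 11.97 and 12.18 TPM in control and 1.17, 1.18 and 1.14 TPM in MT-treated libraries, with a log2 fold change of -2.60 (SE 0.03, adjusted p = 2.29e-09, limma). ROCK2, a kinase of the actin cytoskeleton, had a log2 fold change of -2.26 (SE 0.06, adjusted p = 6.59e-08, limma), and CRB1, of the apical Crumbs complex, one of -1.56 (SE 0.41, adjusted p = 0.0108, limma). PARD6B, of the apical PAR complex, was at 0.03, 0.00 and 0.00 TPM in control and 30.8, 31.5 and 31.7 TPM in MT-treated libraries, and SCRIB, of the basolateral complex, was listed at 0 in control and at 13.5, 11.4 and 12.5 TPM in MT-treated libraries. DLG1, the partner of SCRIB, had a log2 fold change of 3.50 (SE 0.05, adjusted p = 4.82e-09, limma).

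Of the known targets of YAP1-TEAD complexes, 18 of 27 were tested, and 15 had a higher (83.3%) and 3 a lower call (16.7%). Over all tested genes 61.6% were called higher and 34.1% lower. The median log2 fold change of the targets was 1.77, against 1.12 over all tested genes. Of the 15, 8 were listed at 0 throughout the control group, as were 4037 of the 7367 genes called higher over the table. Over the 10 targets above 0 in all 6 libraries the split was 7 higher and 3 lower, against 2809 higher and 3620 lower over the table. The median over these 10 was 0.39, against -0.19 over the table. Some of these 10, such as CCN2, were below 1 TPM in every control library and passed the filter through the MT-treated libraries. The split of the 18 targets was 11 higher and 7 lower after quantile normalization. The 2 CCN genes, which encode secreted matrix proteins and are widely used readouts of YAP1 activity, moved in opposite directions. CCN1 was at 28.3, 29.6 and 28.1 TPM in control and 19.2, 17.0 and 17.6 TPM in MT-treated libraries, with a log2 fold change of -0.65 (SE 0.05, adjusted p = 2.38e-05, limma) that was -0.17 after median centring (adjusted p = 0.0204). CCN2, named after its values were seen, was at 0.37, 0.36 and 0.45 TPM in control and 22.7, 23.0 and 22.3 TPM in MT-treated libraries, with a log2 fold change of 4.09 (SE 0.04, adjusted p = 1.17e-09, limma).

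The other targets at the lower end were GADD45A, a stress and DNA damage gene, with a log2 fold change of -2.72 (SE 0.04, adjusted p = 9.17e-09, limma), and RBMS3, an RNA-binding protein gene, with -1.52 (SE 0.04, adjusted p = 4.43e-08, limma). MYOF and NUAK2 were listed at 0 in control. In MT-treated libraries MYOF was at 54.7, 53.1 and 51.9 TPM and NUAK2 at 19.4, 19.3 and 19.4 TPM. CDX2 and GATA3, trophectoderm factors that were also listed among the targets, were named after their values were seen. Whether YAP1-TEAD complexes act on them in these blastocysts was not tested. CDX2 was listed at 0 in control and at 17.2, 15.0 and 16.1 TPM in MT-treated libraries. GATA3 was at 18.4, 19.9 and 20.3 TPM in control and 36.7, 36.2 and 37.1 TPM in MT-treated libraries, with a log2 fold change of 0.88 (SE 0.04, adjusted p = 1.64e-06, limma). These genes do not stand for the trophectoderm markers as a whole, of which 7 were higher and 11 lower of 18 tested. TFAP2A, DLX3 and ELF3 were among the lower, with log2 fold changes of -4.63, -2.67 and -2.26.

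**Figure D4:**
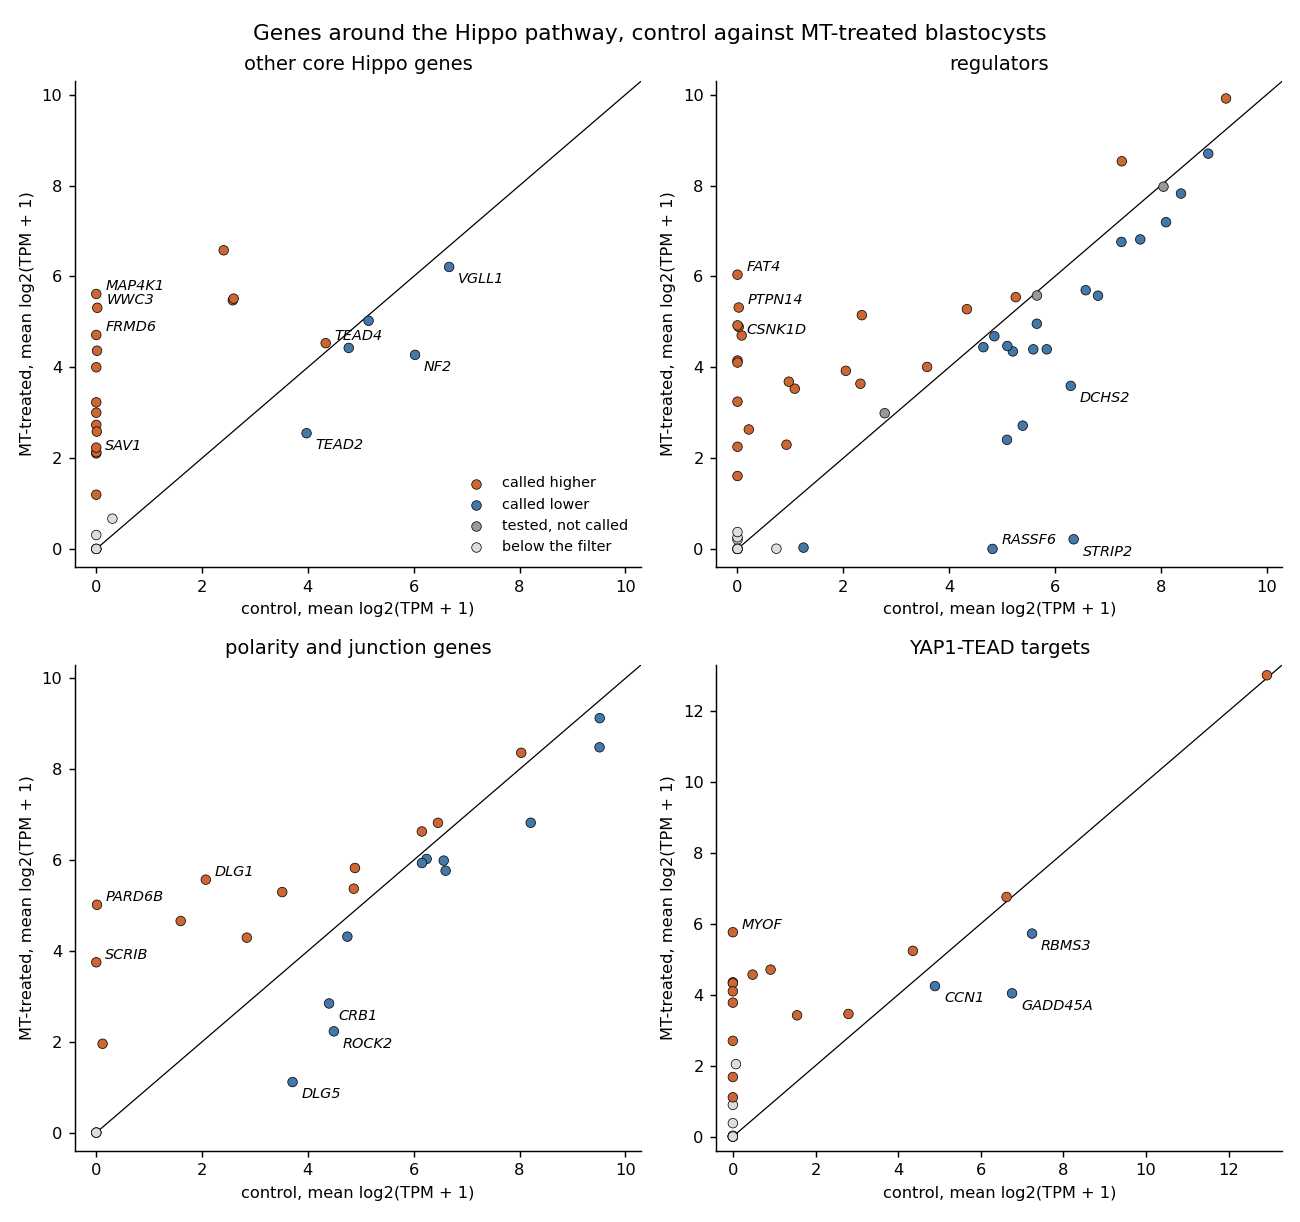
Mean log2(TPM + 1) in control (horizontal axis) against MT-treated libraries (vertical axis) for the genes of 4 lists around the Hippo pathway, 1 point a gene, coloured by the limma call, with a line of equal level. Points on the left edge, such as MAP4K1, FAT4, SCRIB and MYOF, were listed at 0 in control, and NF2, STRIP2, DLG5 and GADD45A lie below the line. The calls are those as fitted: SAV1 turns to -0.06 after quantile normalization and VGLL1 to 0.02 after median centring.

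**Figure D5:**
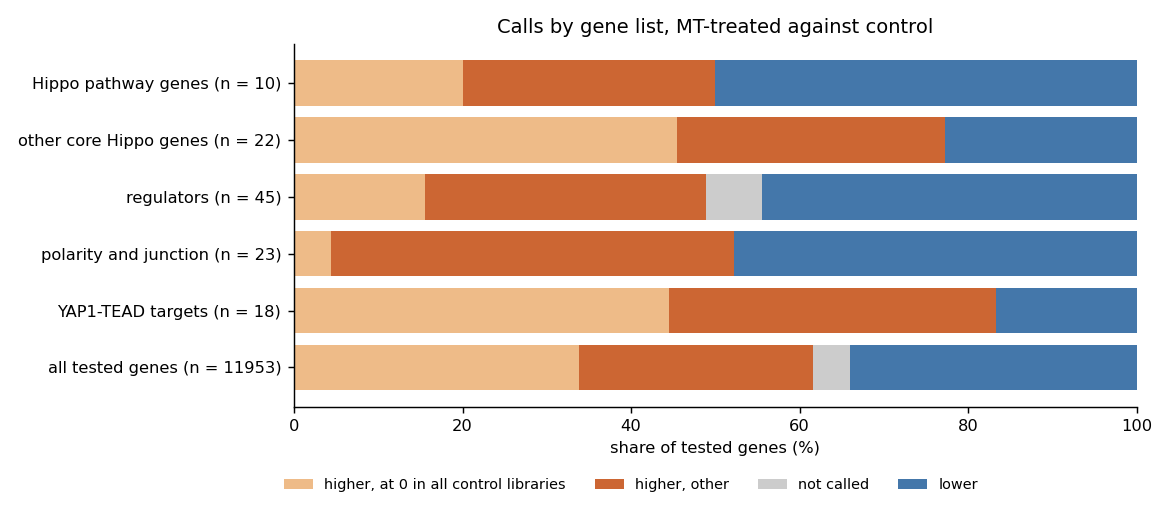
Share of the tested genes of each list (horizontal axis, percent) that was called higher from 0 in all control libraries, called higher otherwise, not called or called lower, with all 11953 tested genes in the lowest bar. The 10 Hippo genes divide into 5 higher and 5 lower as fitted (3 and 7 after quantile normalization, 6 and 4 after median centring), and the other core genes and the targets have the largest shares of calls from 0.

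Some markers of the cell types of the blastocyst differed between the groups as well. The background for the counts below is 61.6% higher and 34.1% lower over all tested genes. The summed TPM of 19 trophectoderm markers was 13430 to 13850 in control and 12110 to 12550 in MT-treated libraries, with 7 higher and 11 lower of 18 tested. CDX2 was at 0 in control, HAND1 was at 0 in all 6 libraries, and KRT8 and KRT18 were the most abundant. The 12 inner cell mass markers summed to 576 to 585 TPM and 501 to 506 TPM, with 3 higher, 4 lower and 3 not called of 10 tested. POU5F1 and DPPA3 were most abundant, and POU5F1 was not called (log2 fold change 0.02, adjusted p = 0.223, limma). The 3 higher were KLF4, NANOG, at 0 in control, and SOX2, at 0.00, 0.02 and 0.00 TPM in control. The 4 lower were KLF17, SALL4, DPPA3 and LIN28B, with log2 fold changes of -2.80, -1.07, -0.86 and -0.63. TDGF1 and FGF4 were at 0 in all libraries. The 12 hypoblast markers summed to 483 to 487 TPM and 533 to 542 TPM, with 7 higher and 1 lower of 8 tested. APOA1, the lower one, made up most of the sum. By the mean over all 6 libraries COL4A1 came next, although GATA6 was above COL4A1 in each MT-treated library. GATA6 was at 0.34, 0.44 and 0.20 TPM in control and 30.8, 32.1 and 33.1 TPM in MT-treated libraries, with SOX17, PDGFRA, HNF4A and RSPO3 among those at 0 in control only and GATA4 and FOXA2 at 0 throughout.

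Of 14 cumulus and granulosa markers, which sum to 96.1 to 97.8 TPM and 96.9 to 99.5 TPM, 8 were at 0 in all 6 libraries, among them HAS2, TNFAIP6 and PTX3, and CYP11A1 and FSHR made up most of the sum. Of 12 fibroblast, leukocyte and blood markers, which sum to 34.8 to 37.0 TPM and 164 to 189 TPM, 4 were higher and 0 lower of 5 tested. The background over all tested genes is 61.6% higher and 34.1% lower. COL1A1, PDGFRB, PTPRC and CD68 were at 0 throughout, and HBA and HBB were the most abundant. COL1A2 was listed at 0 in control and at 9.51, 9.0 and 8.90 TPM in MT-treated libraries, and DCN at 0 and at 2.77, 6.40 and 7.11 TPM. The part of cell composition in the differences of the Hippo genes was not tested.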

How the data were processed

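RNA of 6 blastocyst libraries was sequenced, 3 control and 3 MT-treated. Per the labels, libraries were made with a TruSeq kit and the build was ARS-UCD1.2, whereas the methods of the study name Smart-seq2 and a later build, so both are uncertain. The submitters' processing notes name FastQC 0.11.9, STAR 2.7.9a, featureCounts of Subread 1.6.3 and DESeq2. The authors deposited TPM per gene with 2 decimals, and how counts were turned into TPM, and whether strand was used, was not given in the sources used here. Without counts, depth and counting error are unknown, and no count test was run. The precision rests on the spread of 3 libraries per group, and groups came from the labels.

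Genes that reached a TPM of 1 in 3 or more libraries were kept, and limma 3.58.1 (R 4.3.3; lmFit, then eBayes with trend) was run on log2(TPM + 1), with Benjamini-Hochberg adjustment at 0.05. Paralog shares were compared by exact permutation tests in scipy 1.17.1. Figures were drawn with matplotlib 3.10.9. The fit was checked on simulated log2 values with known changes put into a small part of the genes. That check does not cover a table in which 95.7% of the tested genes were called. The members and gene lists were chosen with earlier results of these data known, and the lists were written from general knowledge. Named were all 10 members, up to 3 highest and 3 lowest called genes without overlap in each pathway list, SAV1, NF2, TEAD2 and TEAD4, and the 2 most abundant markers of each cell type. MOB1A, MOB1B, CCN2, CDX2, GATA3, TFAP2A, DLX3, ELF3, AMOTL1, STK38L, TNIK, POLR3K, MED21, GATA6, COL1A2, DCN and the markers given at 0 were named after their values were seen. So were the inner cell mass markers KLF4, KLF17, SALL4 and LIN28B. A gene that meets the rule is not reported here. The fit was repeated after quantile normalization, after median centring on genes at TPM of 1 or more in all 6 libraries, with 0.1 as the pseudocount, without the filter or with a minimum of 5, without the trend, with a replicate block, with each library left out, and on genes above 0 in all 6 libraries.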

Additional observations from a re-analysis of the deposited data

How the results depend on the processing

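Of 135 fold changes of the 10 Hippo genes under the alternatives, 132 kept their direction and call. The other 3 reversed: YAP1 to -0.82 and AMOTL2 to -0.39 after quantile normalization, and LATS2 to 0.30 after median centring. Before median centring, the median of genes with a TPM of 1 or more in all libraries differed by -0.48 between groups on the log2 scale (MT-treated minus control), so changes smaller than this depend on the reference chosen. Outside the 10 genes, quantile normalization turned SAV1 to -0.06 and MOB1B to -0.047, median centring turned VGLL1 to 0.017, and TEAD4 at 0.04 lost its call after quantile normalization. The cause was not tested.

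Counts of calls moved by over 1.5 times in a few settings. After quantile normalization, 3 of 10 Hippo genes, 11 of 22 other core genes and 13 of 45 regulators were higher and 7 of 18 targets were lower. After median centring, 2 of 22 other core genes and 7 of 23 polarity and junction genes were lower. With a minimum TPM of 5, 10 other core genes of the 15 left were higher, against 5750 of 10005 genes in all. With genes above 0 in all 6 libraries only, fewer genes were tested. Of these, 3 of 7 Hippo genes, 4 of 9 other core genes, 12 of 33 regulators and 7 of 10 targets were higher, against 2814 of 6925 genes in all. Over all 11953 tested genes the split of higher and lower calls was 7367 and 4071 as fitted, 5550 and 5311 after quantile normalization, and 8412 and 3038 after median centring.

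With each library left out in turn, 5 Hippo genes were higher and 5 lower each time. The replicate block gave the same 5 higher and 5 lower, and libraries with the same number deviated together by r of -0.0115, -0.000679 and 0.0588, so the numbers were not taken to pair the libraries. The deposited unit keeps no depth, so values near 0, such as LATS1 in MT-treated libraries, carry an unknown counting error. The limma p-values set a group difference against the spread between 3 libraries per group, which eBayes draws toward the spread of genes of similar level.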

Other observations

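Genes of the lists that missed the filter on low values were not tested. IGFBP3, a YAP1-TEAD target, was at 0.07, 0.02 and 0.07 TPM in control and at 0.08, 6.98 and 7.12 TPM in MT-treated libraries, so MT-treated replicate 1 stood with the controls. AMOTL1, the third angiomotin, was at 0.21, 0.31 and 0.19 TPM in control and at 0.55, 0.65 and 0.56 TPM in MT-treated libraries. ANKRD1, another target in wide use as a readout of YAP1, was listed at 0 in control and at 0.30, 0.35 and 0.25 TPM in MT-treated libraries. WWP2, a ubiquitin ligase gene, was at 0.38, 0.75 and 0.91 TPM in control and at 0.00, 0.00 and 0.01 TPM in MT-treated libraries. These genes were named after their values were seen.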
